A study of Mus musculus with 12 samples.

Results

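The 9 genes of insulin signalling and glucose storage were followed in maps of histone H3 acetylated at lysine 9 (H3K9ac) from mouse liver. They were chosen by name: Insr, Irs1, Irs2 and Foxo1 of the insulin pathway, Slc2a2 and Pklr of glucose entry and breakdown, and Gys2, Pygl and Ppp1r3b of glycogen storage. They are 9 of 21911 protein-coding gene symbols, and every peak was taken that overlapped a gene's body or the 5 kb on either side of its start in GENCODE M21 (mm10, GRCm38). By this rule 233 of the 102889 peaks in the 6 H3K9ac lists belonged to them. Each peak has a fold enrichment, the ratio the authors' caller gave of its signal over background. All lists came from adult liver. C57BL/6J (B6) and MSM/Ms (MSM) gave 2 libraries each. Crosses between them gave 1 library each of F1 BM (B6 mother) and F1 MB (MSM mother). The parents are inbred strains derived from different mouse subspecies, and both libraries of a strain came from different individuals. No animal was treated, the livers were fixed with formaldehyde, and the same antibody against H3K9ac was used throughout. The 6 input libraries were not analysed here. The study made these maps while following how short repeat insertions that differ between the strains bear on nearby chromatin, and here the strains are compared at the 9 genes.

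Insulin binds its receptor on hepatocytes, and insulin receptor substrates carry the signal to kinases that switch glycogen synthesis on and keep the transcription factor Foxo1 out of the nucleus. In fasting the signal falls, glycogen is broken down and Foxo1 returns to its target genes, Irs2 among them. The paper states neither feeding state nor time of collection for these livers, and their part in the results was not tested. H3K9ac marks active promoters, where it usually lies just downstream of the gene start, and active enhancers.

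Liver origin was checked on marker genes. Of 8 hepatocyte markers, 7 had a peak within 1 kb of the start in each of the 6 lists, and Hnf4a had none there. None of the 5 Kupffer cell, 4 stellate cell or 5 other-tissue markers had one in any list, while 0 to 4 of 5 sinusoidal endothelial markers and 0 to 1 of 4 bile duct markers did. The summed length under peaks was 0 to 301 bp for the Kupffer markers, 0 bp for the stellate markers, 0 to 422 bp for the other tissues and 0 to 1456 bp for the bile duct markers, of which Sox9 had the 1 start peak. For the endothelial markers it was 0 bp in B6 replicate 2 and 956 to 6571 bp in the other 5 lists, and its part in the results below was not tested. In a whole tissue, fewer cells of a type and less acetylation per cell cannot be told apart. The lists differed in size: B6 replicate 1 held 22968 peaks over 16.0 Mb and B6 replicate 2 held 11619 over 6.28 Mb. Both MSM lists lay between them, with 17310 and 17584 peaks over 9.66 and 9.69 Mb, as did F1 BM with 20173 peaks over 12.3 Mb and F1 MB with 13235 over 7.46 Mb. The number of peaks on the Y chromosome was 0 in both B6 lists, 8 and 4 in the MSM lists, 9 in F1 BM and 1 for F1 MB, and the labels give no sex. All 6 lists had a start peak at Xist and none had one at the Y-linked genes Ddx3y, Eif2s3y, Kdm5d and Uty.

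RefSeq (GRCm38.p6) gave promoters for 6 of the 9 genes, at 7 starts, and none for Insr, Gys2 and Ppp1r3b. They are shown for all 6 genes, with Pklr at its liver-type start, beside which the peak maps can be read. The bases upstream of the start are printed 5′ to 3′ on the gene's strand, with each CG dinucleotide in capitals. The Pklr stretch stops at base -52 and the Foxo1 stretch at -2, where an annotated transcript begins. Irs1 is at chr1:82291440-82291689 on the minus strand, Irs2 is at chr8:11008930-11009179 on the minus strand, Foxo1 at chr3:52268087-52268335 on the plus strand, Pygl at chr12:70227684-70227933 on the minus strand, Slc2a2 at chr3:28697653-28697902 on the plus strand and the liver-type start of Pklr at chr3:89136373-89136571 on the plus strand.
Irs1: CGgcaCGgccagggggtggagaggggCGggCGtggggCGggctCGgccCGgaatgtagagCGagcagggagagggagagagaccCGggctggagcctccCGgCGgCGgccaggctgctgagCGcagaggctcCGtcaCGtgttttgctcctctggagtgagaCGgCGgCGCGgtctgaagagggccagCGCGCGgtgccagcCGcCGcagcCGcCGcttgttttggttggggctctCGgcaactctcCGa
Irs2: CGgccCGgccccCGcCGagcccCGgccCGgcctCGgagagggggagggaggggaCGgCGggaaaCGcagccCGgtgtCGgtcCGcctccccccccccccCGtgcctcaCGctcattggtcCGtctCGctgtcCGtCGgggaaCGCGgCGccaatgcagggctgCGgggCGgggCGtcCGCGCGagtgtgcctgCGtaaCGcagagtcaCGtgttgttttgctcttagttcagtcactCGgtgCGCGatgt
Foxo1: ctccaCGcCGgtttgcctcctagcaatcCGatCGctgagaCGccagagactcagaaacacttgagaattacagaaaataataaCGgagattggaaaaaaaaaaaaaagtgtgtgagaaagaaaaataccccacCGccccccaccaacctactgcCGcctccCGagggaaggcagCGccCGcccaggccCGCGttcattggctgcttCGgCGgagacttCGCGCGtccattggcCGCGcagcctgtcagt
Pygl: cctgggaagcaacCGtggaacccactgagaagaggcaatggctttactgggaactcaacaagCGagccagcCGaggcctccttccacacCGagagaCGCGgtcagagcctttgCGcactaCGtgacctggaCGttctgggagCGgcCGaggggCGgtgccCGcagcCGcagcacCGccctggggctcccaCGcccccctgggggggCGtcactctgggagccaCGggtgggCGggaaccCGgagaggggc
Slc2a2: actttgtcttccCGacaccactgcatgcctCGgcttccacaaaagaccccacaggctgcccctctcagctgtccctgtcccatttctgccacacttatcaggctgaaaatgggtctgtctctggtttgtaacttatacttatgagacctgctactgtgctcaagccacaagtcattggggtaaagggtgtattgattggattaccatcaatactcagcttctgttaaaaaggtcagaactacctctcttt
Pklr, liver-type start: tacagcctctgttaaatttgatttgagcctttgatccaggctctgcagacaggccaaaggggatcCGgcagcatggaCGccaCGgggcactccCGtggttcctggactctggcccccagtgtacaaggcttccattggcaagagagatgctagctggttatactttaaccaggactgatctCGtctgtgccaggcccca
In the 250 bases upstream of the start, Irs2 held 34 CG dinucleotides, Irs1 28, Foxo1 20 and Pygl 20. Slc2a2 held 2, and Pklr held 3 at its upstream start and 5 at its liver-type start. Over 32841 RefSeq promoters the median was 6 and the quartiles were 2 and 16, so Irs1, Irs2, Foxo1 and Pygl lay above the upper quartile and Slc2a2 and Pklr below the median.

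The peak maps also differed between these starts. At the RefSeq starts of Irs2, Foxo1 and Pygl, the start base was covered by no peak in any of the 6 lists, and every list had a peak on both sides of it. At Foxo1 the upstream peak ended 78 to 191 bp before that base and the downstream peak began 59 to 145 bp after it. At Pygl the distances were 131 to 220 bp and 41 to 161 bp, and at Irs2 186 to 286 bp and 45 to 568 bp. Slc2a2 looked different: a single peak began 8 to 76 bp downstream of the start in 4 lists and covered it in B6 replicate 1 and F1 BM, and a separate peak upstream ended 934 to 980 bp away in 3 lists, with none within 1 kb in the other 3. No relation between CG count and gap was tested, and Irs1, with 28 CG dinucleotides, had its RefSeq start base covered in 4 of 6 lists and no list with a gap.

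Short motifs were searched on both strands of the same 250 bases. The E box CACGTG, the core bound by several helix-loop-helix factors, occurred in Irs1 at bases -115 to -110 and in Irs2 at -44 to -39 from the RefSeq start, and in 6.02% of all RefSeq promoters. The GC box GGGCGG occurred in Irs1, Irs2, Foxo1 and Pygl, and in 32.7% of all promoters. The TATA box TATAAA occurred at the liver-type start of Pklr alone among the 7, at -31 to -26 and so beyond the stretch printed, and in 12.4% of all promoters. The forkhead motif TGTTTAC, the partial HNF1 site GTTAAT, the HNF4 repeat CAAAGTCCA and the cAMP response element TGACGTCA were in none of the 7. Their shares of all promoters were 3.17%, 6.43%, 0.384% and 1.55%. Only exact letters were searched, so sites of these factors with other letters would be missed. These motifs do not overlap one another in the 7 promoters, and a match of letters is not a measured binding site.

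**Figure D1:**
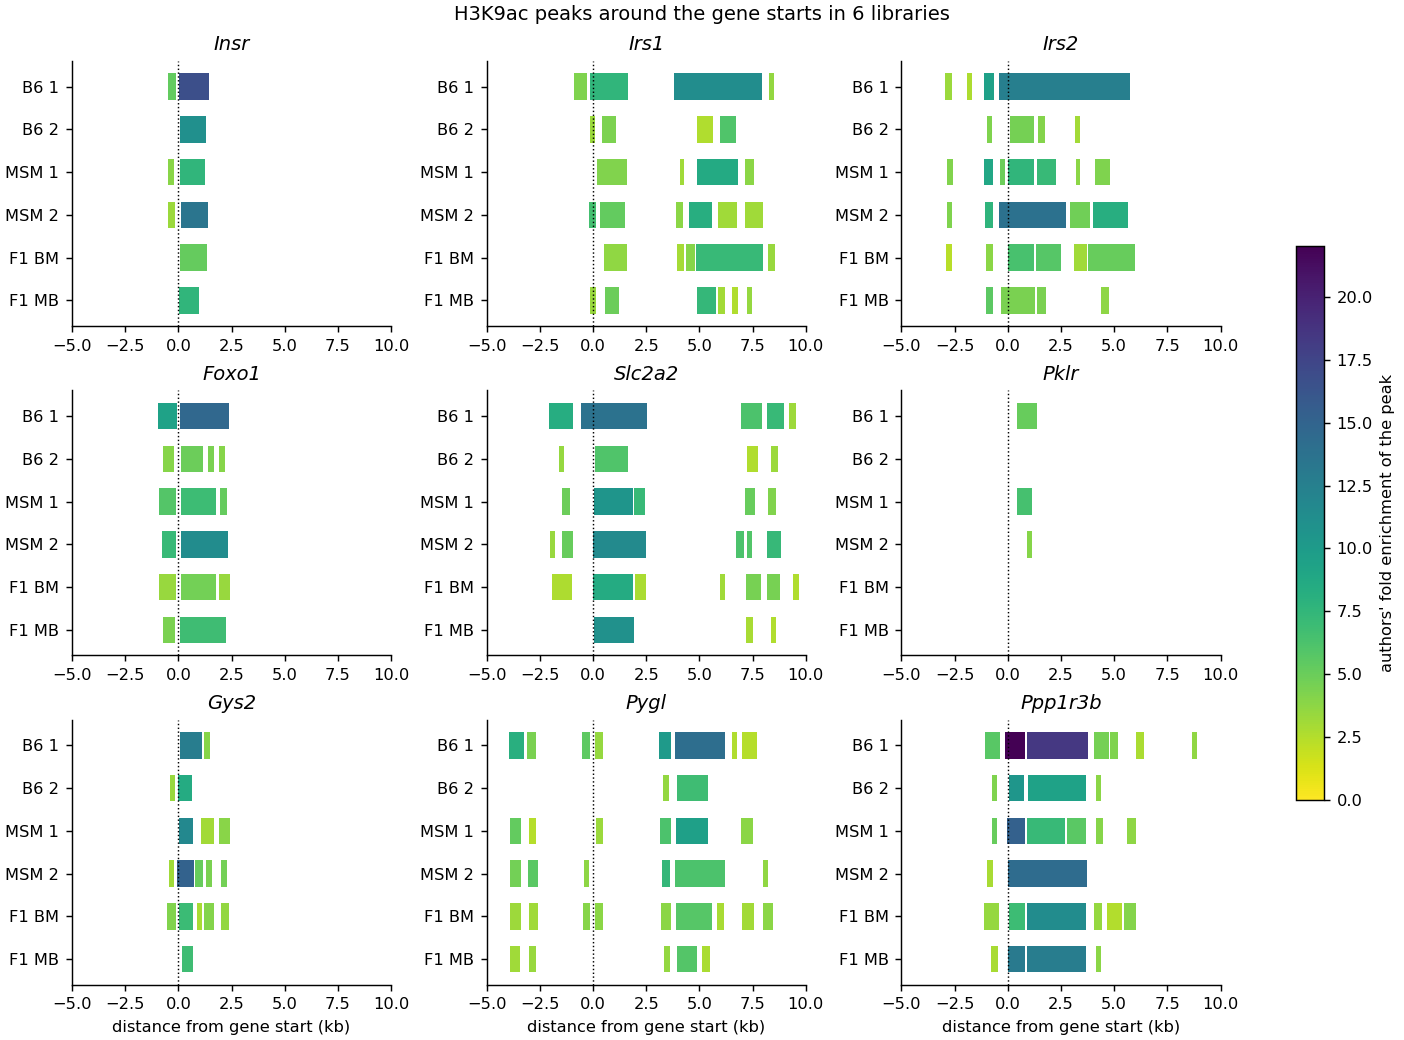
Peaks of the 9 genes from 5 kb upstream to 10 kb downstream of the GENCODE start (dotted line), with transcription running to the right. Each row is 1 library, each bar is 1 peak and its colour is the authors' fold enrichment. The gap at the Foxo1 start is seen in all 6 rows, the strongest peaks of Irs1 and Pygl lie away from the dotted line, and Pklr has a peak in 3 rows.

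Most peaks lay downstream of the GENCODE start. The gene regions hold far more sequence downstream than upstream, so peaks were counted in equal windows of 5 kb on both sides. Of 163 peaks of the 9 genes there, 61.3% lay wholly downstream of the start, 30.7% wholly upstream and 7.98% crossed it. Over all protein-coding genes the shares were 57.1%, 29.4% and 13.6%, so the upstream and downstream shares of the 9 genes were near the background and the crossing share was lower. The 233 peaks in the whole gene regions were 216 to 6147 bp wide, with a median of 479 bp. The strongest peak of a gene had its summit downstream of the start in 49 of the 51 cases where a list held a peak of that gene, and within 1 kb of it in 37. A peak within 1 kb of the start was found in all 6 lists for 7 of the 9 genes, against 23.6% of all protein-coding genes. The exceptions were Pklr, with such a peak in 3 lists, and Pygl, with it in 4. Counted by gene and list, 49 pairs had a peak near the start, so that a gene counts up to 6 times. The start base itself was covered in 13, lay in a gap between peaks in 20 and had peaks only downstream in 15. The rest had peaks only upstream. Over all genes the covered share was 25.1% of 46188 such pairs, the gap share 21.9% and the downstream-only share 44.4%.

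Merging the peaks of the 6 lists gave 45 regions in the 9 genes, of which 17 (37.8%) were found in all 6 lists and 7 (15.6%) in a single list. Of 27334 such regions over the genome, 25.3% were in all 6 lists and 30.6% in a single list. Of the 45 regions, 25 (55.6%) had no peak in B6 replicate 2 and 5 (11.1%) had none in B6 replicate 1, against 65.0% and 19.4% over the genome. B6 replicate 1 alone held 6 (13.3%), against 17.2%. By annotation 19 of the 45 regions lay in introns and 12 upstream of the start, and the others touched exons.

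Insr (ENSMUSG00000005534.10), the receptor tyrosine kinase that binds insulin, lies at chr8:3122061-3279617 on the minus strand. Its main peak began 20 to 108 bp downstream of the start and covered coding exon 1 and the beginning of intron 1. The fold enrichment there was 16.8 and 11.1 in B6, 7.64 and 13.5 in MSM, 5.21 in F1 BM and 7.65 in F1 MB. By this value the strains overlapped. A peak in an intron, 57764 to 58414 bp from the start at chr8:3221203-3221853, was also present in all 6 lists, with a fold of 7.87 and 5.69 in B6, 3.74 and 3.43 in MSM, 2.65 in F1 BM and 3.43 in F1 MB. Both B6 values lay above both MSM values there, in lists whose folds have no common scale. Of the 17 regions of the 9 genes found in all 6 lists, this 1 had both B6 folds above both MSM folds and 1, in Slc2a2, the reverse. Over 6914 such regions the share was 10.5% in each direction, and the difference at Insr was not tested. A weaker intronic region at 23008 to 23722 bp had a fold of 3.68 to 4.43 in 4 lists and no peak in B6 replicate 2 and F1 MB.

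Irs1 (ENSMUSG00000055980.2), an adaptor that the receptor phosphorylates, lies at chr1:82233101-82291416 on the minus strand. Its strongest peak was not at the start in any list. It had its summit 5074 to 6567 bp downstream, past the end of exon 1, which is 4640 bp long and holds the coding sequence. In that region, chr1:82283431-82287604, the fold was 11.3 and 6.05 in B6, 8.67 and 8.25 in MSM, 7.23 in F1 BM and 7.35 in F1 MB. Around the start it was lower in each list, 7.66 and 4.35 in B6, 4.18 and 6.59 in MSM, 3.62 in F1 BM and 4.98 in F1 MB. All 6 lists therefore had an acetylated region at the start and a stronger one around the end of exon 1 and in intron 1.

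Irs2 (ENSMUSG00000038894.7), the second adaptor and itself a fasting-induced gene in liver, lies at chr8:10984681-11008458 on the minus strand. Peaks formed a broad region from -426 bp to 5997 bp of the GENCODE start, across exon 1, which is 3989 bp long. In B6 replicate 1 a single peak of 6147 bp covered nearly the whole of it. In B6 replicate 2 the widest peak was 1128 bp, and in MSM 1229 and 3148 bp. A separate region upstream, at -1112 to -657 bp, was also found in all 6 lists. It held the strongest Irs2 peak in MSM replicate 1, with a fold of 8.89, and in F1 MB, with 5.54. The covered length was 7154 and 1951 bp in B6, 3971 and 6373 bp in MSM, 5875 bp in F1 BM and 2681 bp in F1 MB. The spread within B6 was wider than the distance between the strains. The noncoding gene 9530052E02Rik starts within 1 kb of the broad region, and its acetylation cannot be told apart from that of Irs2.

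Foxo1 (ENSMUSG00000044167.6), the forkhead factor that insulin holds inactive, lies at chr3:52268336-52353221 on the plus strand. Both of its regions were present in all 6 lists, which held for no other of the 9 genes. The upstream region ran from -958 to -77 bp and the downstream region from 60 to 2411 bp, over exon 1 and into intron 1, and no peak was found in the rest of the gene. The covered length was 3213 and 2104 bp in B6, 2781 and 2847 bp in MSM, 2953 bp in F1 BM and 2729 bp in F1 MB. The fold varied more, from 4.68 in F1 BM to 14.7 in B6 replicate 1, lists whose median folds were 3.38 and 5.23. Gm20402 starts within 1 kb of the downstream region.

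Slc2a2 (ENSMUSG00000027690.13), the glucose transporter of hepatocytes, lies at chr3:28697903-28731359 on the plus strand. It held 53 of the 233 peaks and 12 of the 45 regions, more than any other of the 9 genes, and 23 of its peaks lay more than 10 kb from the start. Its covered length was 9760 and 3002 bp in B6, 5115 and 5664 bp in MSM, 8076 bp in F1 BM and 3497 bp in F1 MB. That was 25.4% of the gene region in B6 replicate 1 and 7.81% in B6 replicate 2. The main peak at the start had a fold of 13.8 and 6.08 in B6, 10.6 and 11.5 in MSM, 8.58 in F1 BM and 11.0 in F1 MB. Within the gene, regions at 6708 to 7960 bp, 8165 to 8968 bp and 27612 to 28202 bp were present in all 6 lists. The last of these had a fold of 3.60 and 3.46 in B6, 4.73 and 8.25 in MSM, 4.43 in F1 BM and 2.56 in F1 MB. No other shared region was higher in both MSM lists. A region at 23367 to 24715 bp was missing from B6 replicate 2 alone. Peaks of Slc2a2 thus recurred in every list up to the region that ends at 28202 bp, with long stretches without peaks between.

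Pklr (ENSMUSG00000041237.12), pyruvate kinase of liver and red cells, lies at chr3:89136142-89146784 on the plus strand. Liver and red cells use separate starts, and the liver-type transcripts begin 430 to 481 bp downstream of the GENCODE start. A single region at 449 to 1385 bp held all its peaks, at or just after the liver-type starts. The fold there was 5.13 in B6 replicate 1, 6.46 and 3.99 in MSM, and B6 replicate 2, F1 BM and F1 MB listed no peak. In each of the 3 lists with a peak it was the lowest of the 9 genes by highest fold, and the next lowest in MSM replicate 1 was Foxo1 at 6.96. A list without a peak does not show an absence of acetylation, since a peak too weak for that list is missing too.

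**Figure D2:**
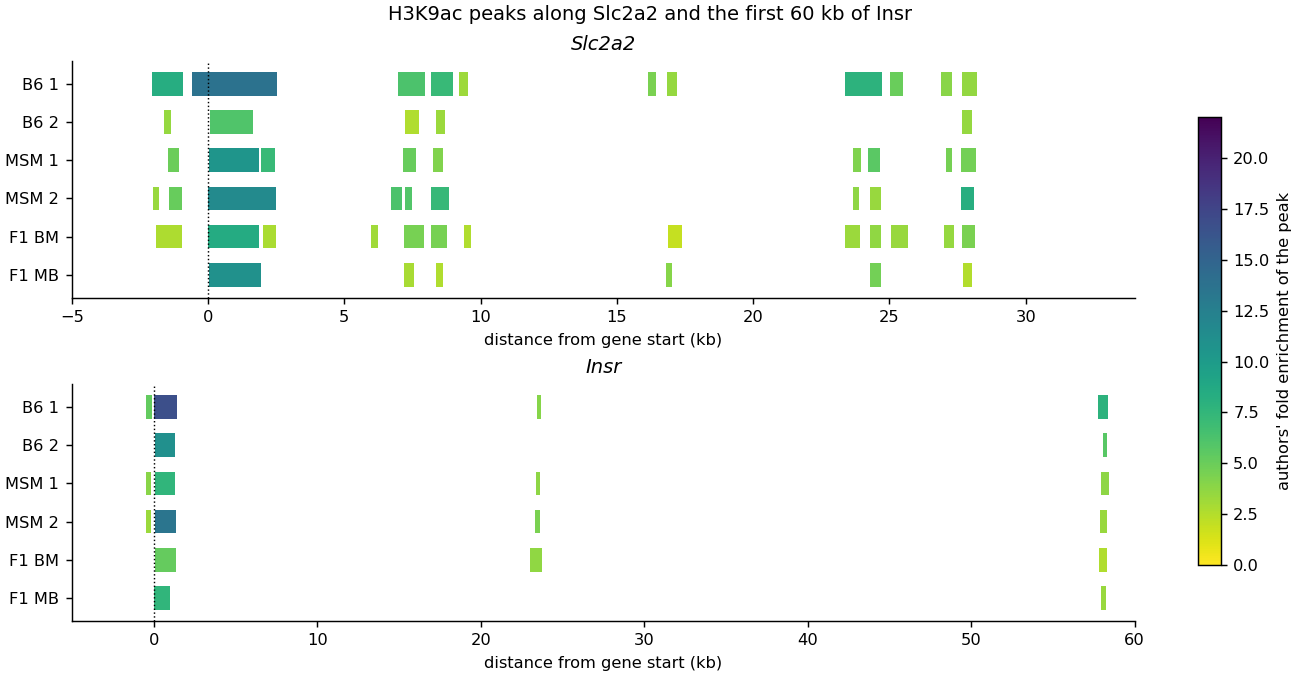
Peaks along Slc2a2 and along the first 60 kb of Insr, by distance from the GENCODE start in kb, with 1 row per library and the authors' fold enrichment as colour. Peaks within Slc2a2 recur at about the same distances in the 6 rows, and Insr has an intronic peak between 57764 and 58414 bp in every row.

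Gys2 (ENSMUSG00000030244.7), the glycogen synthase of liver, lies at chr6:142422613-142473109 on the minus strand. The main peak lay over exon 1, with a summit 393 to 457 bp downstream of the start. Its fold was 12.8 and 8.55 in B6, 11.7 and 15.2 in MSM, 7.01 in F1 BM and 6.82 in F1 MB. A further region in intron 1, 1918 to 2445 bp from the start at chr6:142470664-142471191, had a fold of 3.94 and 4.65 in MSM and 3.53 in F1 BM. It had no peak in B6 or F1 MB, and it was the only 1 of the 45 regions found in both MSM lists and neither B6 list. Over the genome 3.08% of regions had that pattern and 3.06% the opposite pattern, which none of the 45 regions had.

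Pygl (ENSMUSG00000021069.17), the glycogen phosphorylase of liver, lies at chr12:70190811-70231488 on the minus strand. The GENCODE start, that of transcript Pygl-202, had only weak peaks around it, with folds of 3.33 to 5.45 in 4 lists and no peak within 1 kb in B6 replicate 2 and F1 MB. The strong peaks lay on both sides of the start of Pygl-201, 3805 bp downstream, which is also the RefSeq start. The downstream peak there had a fold of 14.2 and 6.84 in B6, 9.61 and 6.27 in MSM, 5.85 in F1 BM and 5.89 in F1 MB. In MSM replicate 2 the peak on the upstream side was the stronger, with a fold of 7.48. With this start in place of the GENCODE start, 8 of the 9 genes had a start peak in all 6 lists. The 23.6% of all protein-coding genes counts GENCODE starts only, so it cannot be set beside this count. F730035M05Rik starts within 1 kb of both peaks, and the signals cannot be told apart.

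Ppp1r3b (ENSMUSG00000046794.9), the subunit that brings protein phosphatase 1 to glycogen in liver, lies at chr8:35375739-35388139 on the plus strand. Its highest fold was 22.0 and 10.5 in B6, 15.3 and 14.3 in MSM, 11.4 in F1 BM and 13.1 in F1 MB. It led the 9 genes in 4 lists, and was passed by Insr in B6 replicate 2 and by Gys2 in MSM replicate 2. Ranked by highest fold within each list, it stood above 99.0% to 99.9% of all protein-coding genes. Its regions covered 22.6% to 35.6% of the gene region, against 0.766% to 1.66% at Insr, whose gene is longer. The main region ran from -142 to 3747 bp of the start, within the intron before the coding exon for most of its length. Gm45469 starts within 1 kb of it.

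The strains were compared on covered length, the number of bp under peaks in the gene region. A call was made where the libraries of the strains did not overlap. With 2 libraries per strain, the two-sided exact permutation test over 6 assignments cannot give a p below 0.333, so no single gene can pass 0.05. Gys2 was the only 1 of the 9 genes that did not overlap. It had 1335 and 859 bp in B6, 1825 and 1983 bp in MSM, 2169 bp in F1 BM and 496 bp in F1 MB. Both MSM livers were above both B6 livers, while the F1 hybrids fell above and below all 4 parents. The mean was 1097 ± 337 bp (SD, n = 2) for B6 and 1904 ± 112 bp (SD, n = 2) for MSM, with an exact permutation p of 0.333. Of 11446 genes with a peak in a parental list, 4.97% were called higher in MSM and 11.6% higher in B6, against 1 and 0 of the 9. The call was lost when the weakest peaks were dropped. The Gys2 difference was then 258 bp with lists of equal number of peaks, 222.5 bp with a −log10 q of at least 5 and -227.5 bp with lists of equal covered length, in place of 807 bp.

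The covered length of the other 8 genes overlapped between the strains. The difference of the means, MSM minus B6, ran from -991.5 bp at Slc2a2 to 619.5 bp at Irs2, and the exact permutation p was 1 for each of the 8. No gene was called higher in B6, while 2 of the 9 (Insr and Ppp1r3b) were with lists of equal number of peaks and 3 (Insr, Gys2 and Ppp1r3b) with lists of equal covered length. The same settings called 19.3% and 15.6% of all genes. The median over the 9 genes was 145 bp, against -123.5 bp over all genes. Its sign depended on the lists: it was -110.5 bp with equal number of peaks, -134.5 bp with equal covered length and -15.5 bp with a −log10 q of at least 5. Without B6 replicate 1 it was 1045 bp, and without B6 replicate 2 it was -1847.5 bp. At each of these 8 genes the B6 livers were further apart than the means of the strains. Replicate 1 had 1.53 times (Foxo1) to 3.67 times (Irs2) the covered length of replicate 2 over the 8 genes with a peak in both, Gys2 included and Pklr left out. Without B6 replicate 1 all 9 genes were called higher in MSM, as were 61.2% of all genes. Without B6 replicate 2, 8 of the 9 were called higher in B6, as were 84.2% of all genes.

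**Figure D3:**
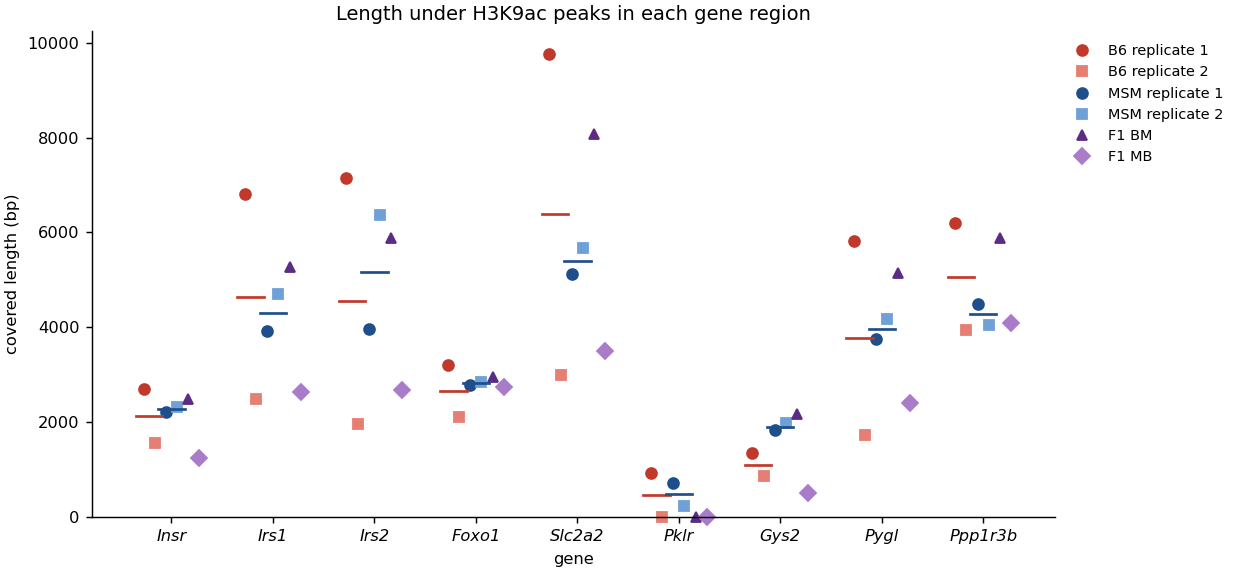
Covered length in bp of the 9 gene regions by library. Each point is 1 library and each line is the mean of the 2 libraries of B6 or MSM. Both MSM points of Gys2 lie above both B6 points, and at the other 8 genes the points of the strains overlap.

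The domain at the start was compared as well, after joining peaks up to 500 bp apart. A call needed a gap of 200 bp or more between the strains. At Gys2 the domain reached 1503 and 621 bp downstream in B6 and 2445 and 2298 bp in MSM, with 2379 bp in F1 BM and 666 bp in F1 MB. The MSM values and F1 BM lay above both B6 values. The mean reach was 1062 ± 624 bp (SD, n = 2) for B6 and 2372 ± 104 bp (SD, n = 2) for MSM, with an exact permutation p of 0.333. Gys2 was the only 1 called of 7 genes with a domain in all 4 parental lists, and over 5186 such genes 2.16% were called in this direction and 5.65% in the other. The call was lost with lists of equal number of peaks or a −log10 q of at least 5. The difference of the means was then 630.5 and 429 bp, in place of 1309.5 bp. It was 868.5 bp without B6 replicate 2, and turned to -155 bp with lists of equal covered length or with no joining of peaks. Upstream of the start none of the 7 genes was called in either direction, against 0.829% for MSM and 4.8% for B6. Without B6 replicate 1, 2 were called further in MSM, as were 15.4% of all genes with a domain. Without B6 replicate 2, 3 were called further in B6 (26% of all), and without MSM replicate 2, 1 was (8.43%).

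Rank within a list does not depend on the list's overall fold. By this fold percentile, the share of protein-coding genes with a lower highest fold, Slc2a2, Pklr and Gys2 were called higher in MSM and Insr higher in B6. That is 3 and 1 of 9, against 18.6% and 26.3% of all genes. Genes with no peak share a value set by the length of the list, 33.3 in B6 replicate 2 and 29.1 and 28.8 in MSM, and this makes calls without a measured fold. Among genes with a peak in all 4 parental lists, Slc2a2 and Gys2 (2 of 8) were higher in MSM and Insr (1 of 8) in B6, against 17% and 20.6% of 6706 such genes. The count higher in MSM was also 2 with lists of equal peaks, of equal covered length or with a −log10 q of at least 5. Those settings called 17.6%, 18.3% and 18.4% of all genes higher in MSM. The count was 6 without B6 replicate 1, when 36% of all genes were called. The count higher in B6 was 4 without B6 replicate 2 and 3 without MSM replicate 1, when 40.4% and 40.5% were. Slc2a2 stood at 96.1 and 89.7 in B6, 96.6 and 97.1 in MSM, 98.3 in F1 BM and 98.7 in F1 MB, so that both hybrids were above all 4 parents. Gys2 stood at 94.6 and 97.6 in B6, 97.8 and 99.3 in MSM, 96.2 in F1 BM and 90.8 in F1 MB. Insr stood at 98.7 and 99.5 in B6, 88.5 and 98.6 in MSM, 89.8 in F1 BM and 93.8 in F1 MB. B6 and MSM were separated by a narrow margin in each case: the gap was 0.507 points at Slc2a2, 0.196 at Gys2 and 0.0958 at Insr. Pklr had 60.2 and 33.3 in B6 and 82.4 and 62.4 in MSM, with 28.9 in F1 BM and 31.5 in F1 MB. B6 replicate 2 and both hybrids are at the value of genes with no peak there. The exact permutation p was 0.333 for each of the 4 genes.

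**Figure D4:**
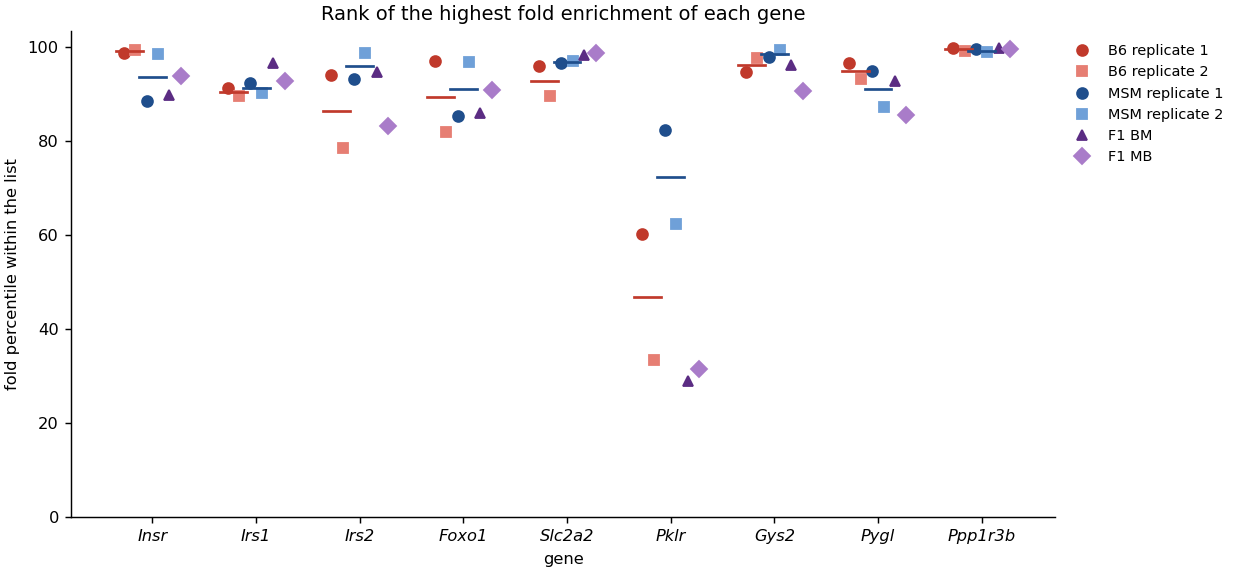
Fold percentile of the 9 genes by library, the percent of protein-coding genes with a lower highest fold in the same list. Each point is 1 library and each line is the mean of the 2 libraries of B6 or MSM. Ppp1r3b lies at 99.0 or above in all 6 lists, and Pklr is the lowest and most scattered.

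Another 40 genes of the pathway were measured in the same way, among them kinases and phosphatases of the insulin signal, its inhibitors, other Foxo factors and the remaining glycogen enzymes. Of these, 25 had a start peak in all 6 lists, beside 23.6% of all genes. For covered length none was called higher in MSM and 6 of the 40 (Tsc2, Inppl1, Shc1, Socs3, Igfbp1 and Gckr) higher in B6, against 4.97% and 11.6% of all genes. The median difference was -143.75 bp, beside the -123.5 bp of all genes. The gap between the strains was largest for Shc1, an adaptor of receptor tyrosine kinases, with 1658 and 1585 bp in B6 and 1277 and 1021 bp in MSM. Igfbp1, a secreted binding protein whose liver gene insulin represses, had 3886 and 1475 bp in B6 and 1058 and 1206 bp in MSM. At Igfbp1 the B6 livers were further apart than B6 replicate 2 was from either MSM liver. Tsc2, an inhibitor of mTOR signalling, had 618 and 632 bp in B6 and 471 and 0 bp in MSM. Inppl1, a lipid phosphatase that limits the insulin signal, had 1475 and 851 bp in B6 and 692 and 727 bp in MSM. The exact permutation p was 0.333 for each of these 4 genes, with n = 2 per strain.

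By fold percentile 4 of the 40 genes were called higher in MSM and 11 higher in B6, against 18.6% and 26.3% of all genes. Of the 28 with a peak in all 4 parental lists, 3 and 6 were called, against 17% and 20.6%. Igfbp1 was called in opposite directions by the 2 measures: its covered length was higher in B6 and its fold percentile higher in MSM. Its highest fold was 14.0 and 7.93 in B6 and 11.5 and 11.4 in MSM. Of 22 pathway genes with a start domain in all 4 parental lists, 0 reached further upstream in MSM and 2, Pik3r1 and Igfbp1, in B6, against 0.829% and 4.8% of all such genes. Downstream, 1 gene, Inppl1, reached further in B6 and none in MSM, against 5.65% and 2.16%.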

How the data were processed

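H3K9ac was measured by ChIP-seq in 6 liver libraries of 12 samples, with groups and replicates as in the sample titles. The authors trimmed adaptors with Trim Galore and mapped read pairs to mm10 (GRCm38) with Bowtie 2, while the submitters' processing notes name HISAT2, SAMtools and MACS2. MSM reads over sequence unlike B6 may therefore have been lost. The deposited lists, 1 per library and not pooled, gave each peak a fold enrichment (a ratio) and, as −log10, a p-value and a q-value. The lowest −log10 q was 1.30 to 1.35, near a q-value of 0.05. The caller's settings and control are not given in the sources used here. The deposited score was not used. No read counts or sequencing depths were used here, and the lists are described by their numbers of peaks and covered Mb.

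Gene starts came from GENCODE M21, with 1 gene per protein-coding symbol. Domains joined peaks up to 500 bp apart, with an edge within 500 bp of the start. Fold percentiles count ties by their midpoint. Strains were compared by two-sided exact permutation tests in Python 3.11.15 with numpy 2.4.6, and figures drawn with matplotlib 3.10.9. Scripts were tested on simulated data. All 9 genes are named, and of the 40 pathway genes up to 4 per direction with the largest gap in covered length. The 9 genes, the lists and the tests were chosen with earlier results of these data known. Alternatives were lists equal in peaks or covered length, a −log10 q of at least 5, other windows and joining distances, the best supported start, each parental library left out and a replicate block.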

Additional observations from a re-analysis of the deposited data

How the results depend on the processing

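Settings that changed the lists changed the calls on covered length. Genes called higher in MSM, 1 as reported, numbered 0 with lists of the same number of peaks, of the same covered length or with a −log10 q of at least 5. Those settings called 8.87%, 17.5% and 4.62% of all genes higher in MSM. Genes called higher in B6, 0 as reported, numbered 2 and 3 with the first 2 of these settings, against 19.3% and 15.6% of all genes. The Gys2 difference, 807 bp as reported, fell to 258 bp at an equal number of peaks and 222.5 bp with the stricter q and reversed to -227.5 bp with the same covered length. With each parental library left out in turn, genes higher in MSM ranged from 1 to 9 for covered length, from 3 to 6 for fold percentile and from 0 to 2 for upstream reach, and genes higher in B6 ranged from 0 to 8, from 1 to 4 and from 0 to 3. The highest values came without B6 replicate 1 for MSM and without B6 replicate 2 for B6, where the shares of all genes called were 61.2%, 36% and 15.4% for MSM and 84.2%, 40.4% and 26% for B6. Without MSM replicate 1 the fold percentile of 3 genes was higher in B6 (40.5% of all genes), and without MSM replicate 2 the upstream reach of 1 was (8.43%). The count of genes with a start peak in all 6 lists stayed between 5 and 8. Of 63 gene differences under the other settings, 54 kept their sign for covered length and 63 for fold percentile. The replicate block is among these settings and leaves every difference of the means as it was, so its values could not change sign. With a parental library left out 12 of 36 and 5 of 36 changed sign. Genes higher in MSM by fold percentile, 3 as reported, numbered 2 with lists of equal peaks, equal covered length or the stricter q. Those settings called 17.6%, 18.3% and 18.4% of all genes higher in MSM. The Pklr difference was then 9.41, 22.4 and 8.48 points in place of 25.6. Alternatives for downstream reach, and the limit to genes with a peak in all 4 parental lists (2 genes higher in MSM and 1 in B6 by fold percentile), were added after seeing the data. Genes reaching further downstream in MSM, 1 as reported, numbered 0 with equal peaks, equal covered length, the stricter q or no joining. Those settings called 2.59%, 3.51%, 2.08% and 2.12% of all genes with a domain. With a parental library left out they numbered from 1 to 4, the 4 without B6 replicate 1, against 24.8% of all genes with a domain. Genes reaching further downstream in B6, 0 as reported, numbered from 0 to 1. The 1 came without B6 replicate 2, when 30.1% of all genes with a domain were called. The Gys2 difference in reach, 1309.5 bp as reported, was 630.5 bp with equal peaks, 429 bp with the stricter q and 868.5 bp without B6 replicate 2. It reversed to -155 bp with equal covered length and with no joining.

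The labels share replicate numbers, but nothing says that a number links mice. Deviations of same-numbered libraries correlated at 0.0832 for covered length and -0.0222 for fold percentile over 11446 genes. With a replicate block, fold percentile was higher in B6 for 3 genes in place of 1 and higher in MSM for 4 in place of 3, against 32.6% and 25.5% of all genes under the block, and no count of covered length or upstream reach changed. Peak lists limit these results, since a missing peak may be a weak one.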
